A study of Mus musculus with 23 samples.

Results

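The myosin heavy chain genes that define the fiber types of skeletal muscle were read in the quadriceps of tumor-bearing and tumor-free mice. The members were the rows of the quadriceps count table with the symbols Myh1, Myh2, Myh4, Myh7, Myh3 and Myh8. All 6 were present among 12831 genes, and 3 of them (Myh1, Myh2 and Myh4) were also present among 16962 genes in a table of epididymal fat. The mice were males, C57BL/6 in the labels and C57BL/6J in the study's methods, operated on at 8 weeks of age. The no tumor group had sham surgery (3 quadriceps and 4 fat libraries). The KPC group received pancreatic tumor cells of a line from a Pdx1-Cre model, as a clone that held a Cas9 plasmid with a null guide (4 and 4). The KPC IL6KO group received 1 clone of the same line with Il6 edited (4 and 4). The hosts kept their own Il6 in every group, the deletion rested on a single clone, and all mice were killed when the KPC group was overtly wasting. Quadriceps libraries held 19259763 to 74907810 counts and fat libraries 26306377 to 56308545. Levels below are CPM, read counts relative to a library total that TMM has corrected for composition, and "called" means an FDR of at most 0.05 with a fold change (FC) of at least 1.5 in the edgeR quasi-likelihood fit over all genes of the table. The quadriceps label was borne out by the 12 skeletal muscle markers, which summed to 115020 to 165146 CPM.

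Each myosin II motor of the thick filament is built on a pair of heavy chains, and the heavy chain isoform sets how fast a fiber shortens and how it uses ATP. Myh4 encodes the IIb chain of the fastest, glycolytic fibers, Myh1 the IIx chain, Myh2 the IIa chain of fast oxidative fibers and Myh7 the slow chain of type I fibers, which is also a cardiac chain. Myh3 and Myh8 encode the embryonic and perinatal chains, which are used in development and again in regenerating fibers. Mouse quadriceps is a mostly fast muscle.

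Of the 6 members, 5 lie in 1 cluster on the plus strand of chromosome 11 (GRCm38/mm10), in the order Myh3 (chr11:67078300-67102291), Myh2 (chr11:67171027-67197517), Myh1 (chr11:67200052-67224575), Myh4 (chr11:67238029-67260446) and Myh8 (chr11:67277124-67308634). Myh7 lies on the minus strand of chromosome 14 (chr14:54970684-54994626). The coding sequence has 38 coding exons in every member but Myh3, which has 39. Because the counts are of uniquely placed reads, the likeness of the members bears on their values, and the first 75 coding bases are shown for the IIb, IIx, IIa and slow chains, with capitals at the bases that differ from Myh4 in the aligned coding sequences.
Myh4: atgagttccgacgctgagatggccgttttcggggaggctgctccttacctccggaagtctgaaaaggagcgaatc
Myh1: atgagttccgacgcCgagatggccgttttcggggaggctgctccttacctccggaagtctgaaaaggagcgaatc
Myh2: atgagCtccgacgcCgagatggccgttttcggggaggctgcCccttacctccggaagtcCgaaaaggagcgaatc
Myh7: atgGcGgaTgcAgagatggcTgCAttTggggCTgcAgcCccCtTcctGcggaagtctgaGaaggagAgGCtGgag
Myh1 differed from Myh4 at 1 of these bases and Myh2 at 4. Over the whole coding sequence Myh4 shared 90.1% of its aligned bases with Myh1, 88.2% with Myh2 and 77.4% with Myh7. Of the 75-base windows of each transcript, the length of 1 read of a pair, 16.2% in Myh1, 16.3% in Myh2 and 9.37% in Myh4 occurred unchanged in another member, against 0% in Myh7. With every other gene included the share was 18.3% in Myh2, 9.68% in Myh4 and 19.7% in Myh7, whose shared windows also lay in Myh6, Mhrt or other gene models outside the members. A read in a window that recurs elsewhere in the genome can be placed on 1 gene only through its mate. Other transcripts were searched on both strands. A window shared with an overlapping antisense gene can thus be the same genomic bases, which a mate does not separate. How many reads were lost from the counts was not tested. Antisense genes overlap Myh1 (Myhas), Myh2 (9430073C21Rik) and Myh7 (Mhrt) and were not in the table. Whether the counting used strand is not given in the sources used here.

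The promoters of the 3 adult fast genes, which the results below turn on, are shown as the 250 bases before the RefSeq start (GRCm38.p6, plus strand). All 6 members matched the RefSeq promoter table. Capitals mark a run of 20 bases that Myh4, Myh1 and Myh2 have in common.
Myh4, chr11:67237562-67237811: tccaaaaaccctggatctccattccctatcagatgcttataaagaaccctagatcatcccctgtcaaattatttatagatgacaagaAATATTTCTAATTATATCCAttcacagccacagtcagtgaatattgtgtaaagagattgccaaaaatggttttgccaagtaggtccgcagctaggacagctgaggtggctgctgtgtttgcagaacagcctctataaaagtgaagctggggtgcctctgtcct
Myh1, chr11:67199852-67200101: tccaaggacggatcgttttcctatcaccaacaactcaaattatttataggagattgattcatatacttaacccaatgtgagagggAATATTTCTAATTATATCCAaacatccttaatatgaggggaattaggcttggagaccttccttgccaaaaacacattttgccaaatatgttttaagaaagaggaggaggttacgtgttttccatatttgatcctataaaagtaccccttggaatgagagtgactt
Myh2, chr11:67170777-67171026: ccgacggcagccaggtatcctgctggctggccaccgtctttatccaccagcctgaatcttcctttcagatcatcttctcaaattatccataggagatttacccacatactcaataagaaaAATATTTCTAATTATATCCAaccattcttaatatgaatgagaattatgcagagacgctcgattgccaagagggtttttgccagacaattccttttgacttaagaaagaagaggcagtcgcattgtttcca
The run began 163 bases before the start in Myh4, 165 in Myh1 and 130 in Myh2, and 3 of 32817 promoters held it on either strand, those of these 3 genes. A match to the MEF2 motif, TTATTTATAG in each case, stood in Myh4 (182 bases before the start), Myh1 (211) and Myh8 (99), and 2.92% of all promoters held a MEF2 match. TATAAA stood 31 bases before the start in Myh4, 32 in Myh1 and 29 in Myh3, and 12.4% of promoters held TATAAA on either strand. The search covered both strands, and the TATAAA pattern can overlap a MEF2 match. Of the other motifs searched, the E box CANNTG was held by 66.2% of promoters, the CArG box by 1.47% (Myh4 alone of the members, 104 bases before the start), TGGAAA by 18.6% and TCAGGTT by 3.50%. These matches are letters in a window and were not tested as sites.

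Myh4 was by far the most abundant member. Per kilobase of annotated exon, the mean level over the 11 quadriceps libraries was 8792 CPM per kb for Myh4, 895 for Myh1, 135 for Myh2, 17.7 for Myh7, 0.334 for Myh8 and 0.202 for Myh3. The order of the first 3 held in every library range, since the lowest Myh4 value (6161) was above the highest Myh1 value (1544) and the lowest Myh1 value (470.1) above the highest Myh2 value (241). Myh2 ranged from 12.6 to 166 and Myh7 from 0.747 to 42.4 CPM per kb in the KPC libraries, so these neighbours overlapped there. Myh8 and Myh3, both below 1 CPM per kb in every library, overlapped as well.

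Myh4, the IIb chain, was lower in KPC. Its level was 57848, 53096 and 69620 CPM in the no tumor libraries, 46650, 42160, 37066 and 42231 in KPC, and 64153, 59013, 59399 and 50575 in KPC IL6KO. All 4 KPC libraries lay below all libraries of the other groups, which overlapped each other. The mean was 60188 ± 8507 (SD, n = 3) in no tumor, 42027 ± 3918 (n = 4) in KPC and 58285 ± 5647 (n = 4) in KPC IL6KO. Myh4 in KPC was 1.43-fold lower than in no tumor (log2 FC -0.52, SE 0.14, 95% interval -0.83 to -0.21, FDR 0.00691) and 1.39-fold lower than in KPC IL6KO (log2 FC -0.47, SE 0.13, FDR 0.00788). Both differences passed the FDR and fell short of the FC of 1.5. In the newer form of the quasi-likelihood fit neither passed the FDR (0.0575 and 0.0623), and with library totals in place of TMM both passed the FC too (log2 FC -0.71 and -0.60). With any single library left out the FDR stayed at 0.0317 or below against no tumor and 0.0290 or below against KPC IL6KO, and without no tumor 2 the log2 FC of -0.60 passed the FC as well (FDR 0.00818).

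Myh2, the IIa chain, had the largest fold difference among the fast members and a wide spread. It read 1720, 1515 and 747 CPM in no tumor, 90.1, 391, 188 and 1184 in KPC, and 1139, 1396, 1402 and 861 in KPC IL6KO. KPC libraries 1 to 3 were below every other library, while KPC 4 lay within the range of both other groups. The mean was 1327 ± 513 in no tumor, 463 ± 497 in KPC and 1200 ± 257 in KPC IL6KO. The log2 FC of KPC was -1.52 against no tumor (SE 0.65, 95% interval -2.95 to -0.09, FDR 0.0573) and -1.37 against KPC IL6KO (SE 0.62, FDR 0.0668), so Myh2 was not called. The call turned on the libraries, the scaling and the test. Without KPC 4 the log2 FC was -2.57 against no tumor (FDR 0.000780) and -2.43 against KPC IL6KO (FDR 0.000869), and without no tumor 3 it was -1.80 against no tumor (FDR 0.0472). DESeq2 called Myh2 in both comparisons (adjusted p = 0.0275 and 0.0286), as did the edgeR likelihood ratio test (0.0268 and 0.0341), and library totals did so against no tumor (log2 FC -1.70, FDR 0.0427).

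Myh1, the IIx chain, did not follow Myh4. It read 5916, 5554 and 3950 CPM in no tumor, 2987, 6767, 5251 and 9811 in KPC, and 4344, 7316, 5475 and 5188 in KPC IL6KO. KPC held both the lowest and the highest library. The mean was 5140 ± 1046, 6204 ± 2863 and 5581 ± 1253 CPM in the same order. The log2 FC of KPC was 0.27 against no tumor (SE 0.33, 95% interval -0.45 to 0.99, FDR 0.477) and 0.15 against KPC IL6KO (SE 0.30, FDR 0.671), and the interval reaches past the FC of 1.5 on the higher side.

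Myh7, the slow chain, varied more between mice of 1 group than between groups. It read 64.2, 2.02 and 96.9 CPM in no tumor, 45.2, 6.44, 335 and 365 in KPC, and 251, 71.4, 232 and 211 in KPC IL6KO. KPC 3 and KPC 4 were the highest of all libraries, KPC 1 and KPC 2 fell within the no tumor range, and no tumor 2 was the lowest of all. The highest library was 48.0 times the lowest in no tumor, 56.8 times in KPC and 3.51 times in KPC IL6KO. The mean was 54.4 ± 48.2, 188 ± 188 and 191 ± 81.6 CPM. The log2 FC against no tumor was 1.80 in KPC (SE 1.23, 95% interval -0.89 to 4.48, FDR 0.212) and 1.82 in KPC IL6KO (FDR 0.927), and neither was called.

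The developmental chains were low in every library. Myh8 read 4.57, 3.70 and 4.97 CPM in no tumor, 2.97, 3.35, 2.52 and 3.82 in KPC, and 4.77, 5.07, 3.68 and 3.86 in KPC IL6KO. KPC 4 overlapped both other groups. Myh8 held 97 (no tumor 3) to 289 (KPC IL6KO 2) counts per library, and 11.4% of its 75-base windows occurred unchanged in another member. Whether reads from other members add to its counts was not tested. Myh8 was 1.39-fold lower in KPC than in no tumor (log2 FC -0.47, SE 0.19, FDR 0.0443), with a log2 FC of -0.46 against KPC IL6KO (SE 0.18, FDR 0.0373), short of the FC of 1.5. The FDR was above 0.05 in 5 of 7 fits that left out 1 library against no tumor (0.0220 to 0.142) and in 4 of 8 against KPC IL6KO (0.0185 to 0.113), and the FC was passed too without no tumor 2 (log2 FC -0.59, FDR 0.0352) and with library totals (-0.67, FDR 0.0115). Myh3 read 0.67 to 2.13 CPM in no tumor, 0.62 to 2.24 in KPC and 0.67 to 1.74 in KPC IL6KO, ranges that overlapped fully. Its log2 FC in KPC against no tumor was -0.24 (SE 0.50, FDR 0.679).

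**Figure D1:**
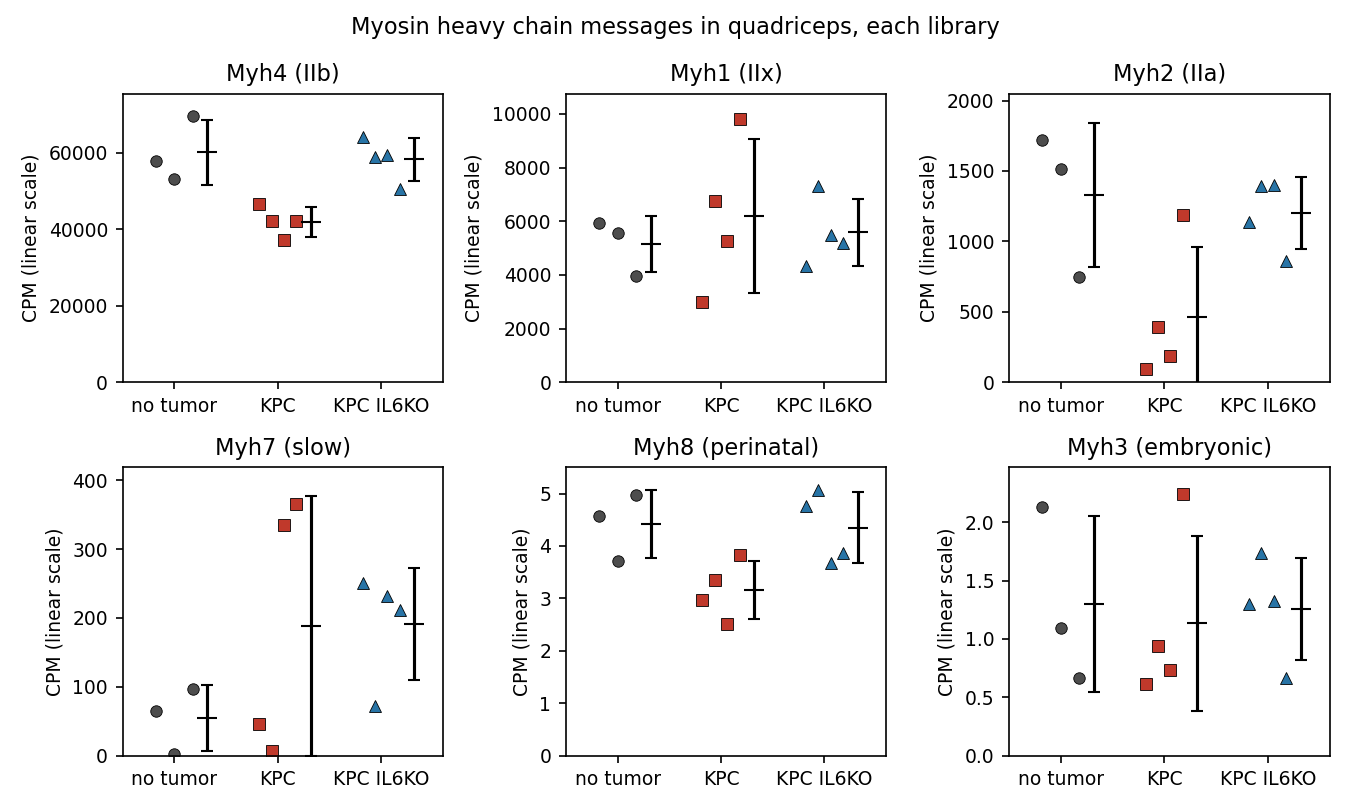
Each panel plots 1 member in the 11 quadriceps libraries as CPM on a linear axis that starts at 0, with 1 point per library and the mean ± SD beside each group (a bar that would pass below 0 is cut there). Myh4 in KPC lies between 37066 and 46650, below every other library, whereas the Myh7 points of KPC run from 6.44 to 365.

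Across the 6 members, 0 were called in KPC against no tumor, where 26.7% of all genes were called higher and 29% lower. Of those calls 48.0% were higher, or 36.8% when library totals replaced TMM, a change that moved the median log2 FC of all genes from -0.03 to -0.24. By unadjusted p under 0.05 there were 3 members (Myh2, Myh4 and Myh8), beside 9019 of 12831 genes, and DESeq2 and the likelihood ratio test each called 1 member, Myh2, and 7254 genes. At an FDR of at most 0.05 and any FC there were 2 lower members (Myh4 and Myh8), against 34.2% of all genes. Only Myh4 had no overlap between KPC and no tumor, where 33% of genes lay wholly lower and 32.3% wholly higher. In KPC against KPC IL6KO again 0 of 6 members were called, beside 26.4% of genes called higher and 27.3% lower, and the same 3 members had p under 0.05, beside 9102 genes. DESeq2 called Myh2 and 6978 genes there, and the likelihood ratio test Myh2 and 6981 genes. Myh4 and Myh8 passed the FDR at any FC, against 33.6% of genes lower, and Myh4 alone did not overlap, against 30.8% lower and 31.2% higher. The members passed these criteria no more often than genes at large. These comparisons share the KPC libraries. In KPC IL6KO against no tumor 0% of genes and 0 of 6 members were called by the quasi-likelihood test, with 0 members and 887 genes at p under 0.05. DESeq2 called 96 genes but 0 members and the likelihood ratio test 95 genes but 0 members. The quasi-likelihood fit shares its estimate of spread with the KPC libraries. Fitted with only KPC IL6KO and no tumor, it gave 2258 genes at p under 0.05 and still called 0. As no gene of the table passed there, the lists below are given for the other comparisons. Of all genes 15.5% did not overlap between those groups, and 0 of 6 members did. The fitted log2 FC of KPC IL6KO against no tumor was -0.05 for Myh4, 0.12 for Myh1, -0.15 for Myh2, -0.09 for Myh3, -0.02 for Myh8 and, with a 95% interval that includes 0, 1.82 for Myh7.

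**Figure D2:**
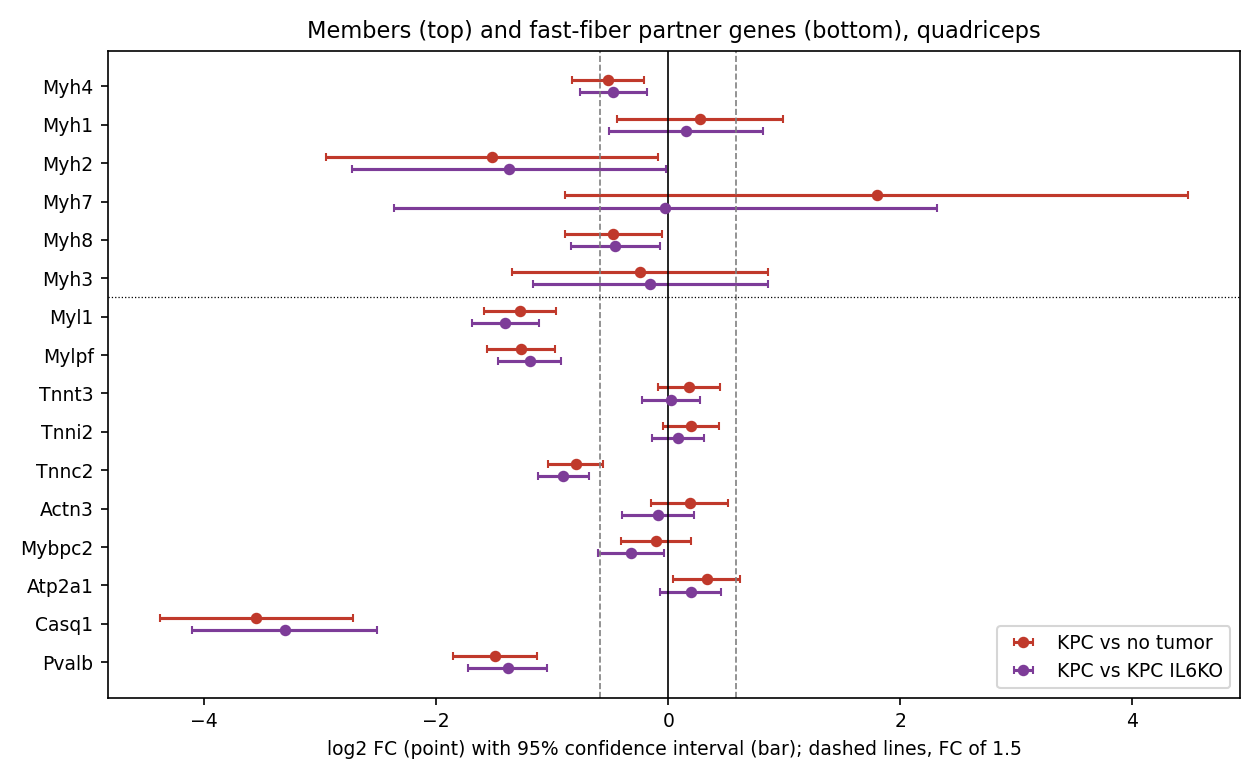
The log2 FC (point) and its 95% confidence interval (bar) are plotted for the 6 members above the dotted line and for 10 partner genes of fast fibers below it, in KPC against no tumor and against KPC IL6KO, with dashed lines at the FC of 1.5. The Myh4 intervals lie below 0 at -0.52 and -0.47, while Myl1 (-1.27) and Mylpf (-1.27) lie further down and the intervals of Tnnt3 (0.18) and Tnni2 (0.20) include 0.

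Whether the isoform mix moved was read from the share of each member in the summed counts of the 6, a measure that needs no scaling between libraries. Myh4 took 88.2, 88.2 and 93.6% of the myosin total in no tumor, 93.7, 85.5, 86.5 and 78.8% in KPC, and 91.8, 87.0, 89.3 and 89.0% in KPC IL6KO. KPC held both the highest and the lowest share. Its mean share was 90.0% ± 3.06, 86.1% ± 6.11 and 89.3% ± 1.95. Myh1 took 7.85% ± 2.21 in no tumor, 12.6% ± 5.08 in KPC and 8.59% ± 1.91 in KPC IL6KO, with 6.00% in KPC 1 and 18.3% in KPC 4. Myh2 took 2.05% ± 0.906, 0.905% ± 0.905 and 1.83% ± 0.299, with KPC 1 to 3 at 0.181, 0.792 and 0.438% and KPC 4 at 2.21%. Myh7 took 0.0772% ± 0.0659, 0.392% ± 0.396 and 0.296% ± 0.128, and Myh3 and Myh8 stayed at or below mean shares of 0.00226% and 0.00665%. The groups overlapped for every member in every comparison. Over the 18 comparisons of shares the lowest 2-sided exact permutation p was 0.0857 (Myh7, KPC IL6KO against no tumor), and every adjusted p was 0.823 or above. The smallest p this design allows is 0.0286, so no share could pass after adjustment over 18 comparisons unless many of them reached that p. The difference in the Myh4 share between KPC and no tumor, -3.89 percentage points, was smaller than the SD of the KPC shares.

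The total was lower in KPC, in tests adjusted over 3 comparisons where the shares were adjusted over 18. The 6 members took 7.12, 6.74 and 7.54% of all library counts in no tumor, 4.31, 4.84, 3.93 and 5.18% in KPC, and 7.10, 6.91, 6.73 and 5.84% in KPC IL6KO. No KPC library reached the lowest library of either other group. The mean was 7.13% ± 0.402, 4.57% ± 0.553 and 6.64% ± 0.555. KPC differed from no tumor and from KPC IL6KO at the smallest p the exact permutation test can give with these group sizes (2-sided p = 0.0286 for each, 0.0429 adjusted over 3 tests), and KPC IL6KO did not differ detectably from no tumor (exact p = 0.314). The share of a library is set by every other message in it too, and in bulk tissue fewer muscle nuclei or fibers and less RNA in each cannot be told apart. With TMM-scaled CPM in place of raw shares the drop against no tumor was 1.78 percentage points rather than 2.57, with the same exact p. Some markers of other cells also differed between the groups. Unlike the myosin total, the fibroblast and neutrophil sums set KPC IL6KO apart from no tumor too. All 8 fibroblast markers were called lower in KPC against no tumor, their summed level being 1062 to 1166 CPM in no tumor, 172 to 292 in KPC and 599.5 to 917 in KPC IL6KO. Of 8 neutrophil markers 4 were measured and all 4 were called higher, from a sum of 0.359 to 0.779 CPM in no tumor to 4.5 to 21.8 in KPC and 2.14 to 4.13 in KPC IL6KO, with Ly6g, Cxcr2, Ngp and Camp not in the table. Of 6 satellite cell markers 4 were called lower and 1 higher, and of 6 Schwann cell markers 4 lower. Of 8 adipocyte markers 1 was called lower, of 8 macrophage markers 1 higher and 2 lower, and of 8 endothelial markers 2 lower. Of all genes 26.7% were called higher and 29% lower in KPC against no tumor. The part of these cell types in the myosin result was not tested.

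**Figure D3:**
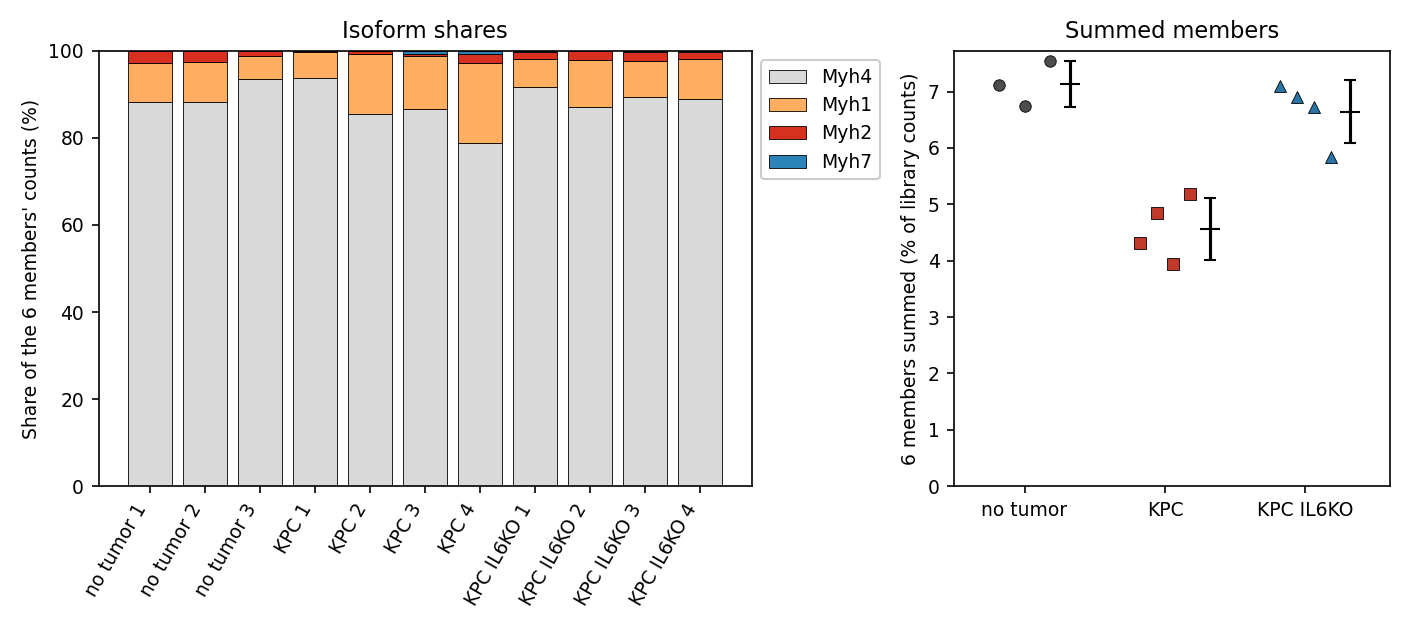
The left panel stacks the shares of Myh4, Myh1, Myh2 and Myh7 in the summed counts of the 6 members (%) for each quadriceps library, and the right panel plots that sum as a percentage of all library counts, with mean ± SD. The Myh4 share runs from 78.8 to 93.7% within KPC, while the KPC totals (3.93 to 5.18%) lie below all other libraries (5.84 to 7.54%).

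The partners of the fast heavy chains did not move together. Of 14 fast sarcomere isoforms, all measured, 7 were called lower and 1 higher in KPC against no tumor, beside 29% and 26.7% of all genes. Their median log2 FC was -0.45 beside -0.03 over all genes. Against KPC IL6KO the same genes made the 7 and the 1, beside 27.3% and 26.4% of all genes, with a median of -0.61 beside -0.01. Casq1, the calcium store protein of the fast sarcoplasmic reticulum, fell furthest, from 3639 to 4312 CPM in no tumor to 119 to 465 in KPC (log2 FC -3.55, SE 0.38, FDR 1.27e-05). Pvalb, the calcium buffer of fast fibers, fell by 1.49 on the log2 scale (SE 0.17). The 2 light chains of the fast motor, Myl1 and Mylpf, each fell by 1.27 (SE 0.14 and 0.13). Mylk2, the kinase that phosphorylates the regulatory light chain in skeletal muscle, rose (log2 FC 1.22, SE 0.21). Fast troponins split: Tnnc2 fell by 0.80, whereas Tnnt3 (log2 FC 0.18) and Tnni2 (0.20) were not called. Atp2a1, the calcium pump of fast fibers and the most abundant gene of the list, had a log2 FC of 0.33 (SE 0.13, FDR 0.0423), below the FC of 1.5.

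Set against the heavy chain total in the same library, a message can be compared with no library scaling. Per 100 heavy chain counts, Myl1 and Mylpf together gave 29.8 ± 0.601 counts in no tumor, 16.9 ± 1.49 in KPC and 31.1 ± 2.79 in KPC IL6KO. Acta1, the thin filament actin, gave 52.9 ± 0.957, 44.6 ± 2.85 and 65.8 ± 6.63, and Atp2a1 gave 58.1 ± 1.42, 99.7 ± 10.5 and 65.7 ± 6.86. Light chain and actin messages thus lay lower and pump messages higher per heavy chain count in KPC, with no overlap with either other group. Over 18 such ratio tests, added after the levels were seen, the exact permutation p of each of these was 0.0286 and the adjusted p 0.0571, so none passed. As 0.0286 is the smallest p the test can give here, passing rested on how many of the 18 tests reached it. In KPC IL6KO against no tumor the Acta1 and Atp2a1 ratios also lay higher without overlap (adjusted p = 0.0571 and 0.129, exact test). Genes are counted without regard to length here, so a ratio compares groups and not 2 messages.

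**Figure D4:**
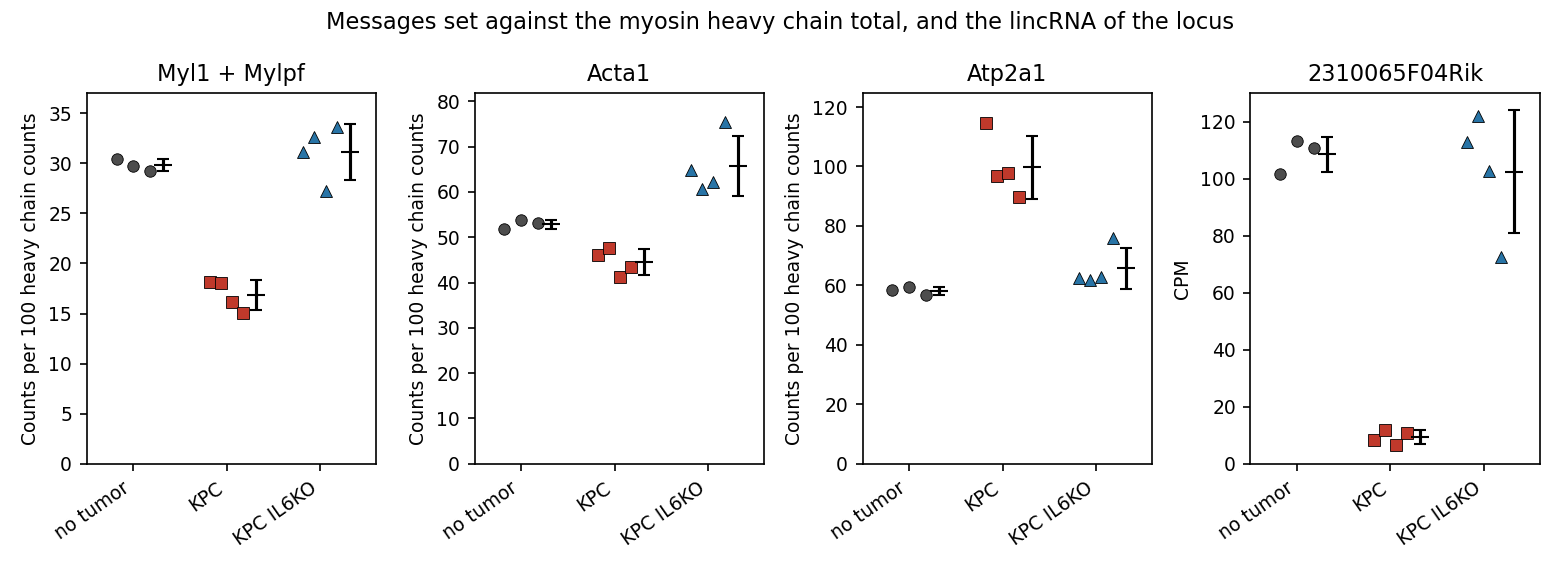
The first 3 panels plot counts of Myl1 with Mylpf, of Acta1 and of Atp2a1 per 100 summed heavy chain counts, and the last the CPM of 2310065F04Rik, with 1 point per quadriceps library and the mean ± SD of each group. The light chain ratio is 15.1 to 18.1 in KPC and 27.2 to 33.6 elsewhere, and 2310065F04Rik is 6.51 to 12 CPM in KPC and 72.6 to 122 elsewhere.

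Slow partners stayed mostly uncalled. Of 14 slow sarcomere isoforms 1 was called higher in KPC against no tumor, Sln, an inhibitor of the calcium pump (log2 FC 1.63, SE 0.43, FDR 0.00518), at 0.92 to 1.40 CPM in no tumor and 2.77 to 4.84 in KPC. Casq2, the slow and cardiac calsequestrin, was called lower (log2 FC -1.15, SE 0.40, FDR 0.0239), a call that was lost without no tumor 1 (log2 FC -0.95, FDR 0.0965). The list median was 0.56, and 26.7% of all genes were called higher and 29% lower in this comparison. Against KPC IL6KO Sln was again called higher (log2 FC 1.00, FDR 0.0305), and Casq2 (-1.36) and Mb, the oxygen store myoglobin (-0.94, SE 0.35, FDR 0.0321), lower, with a median of -0.55. The Sln call was lost without KPC 3, KPC 4, KPC IL6KO 2 or KPC IL6KO 4 (log2 FC 0.76 to 0.97), with library totals and in a fit of only those groups, and the Mb call without KPC 1, 2 or 3 or KPC IL6KO 2 or 3 (log2 FC -0.94 to -0.68). Among the embryonic isoforms and myogenic factors, 7 of 10 were measured. Actc1, the fetal actin, fell by 3.97 (SE 0.36) and Myod1, a myogenic determination factor, fell by 2.93 (SE 0.36) in KPC against no tumor, and Myog, a differentiation factor, was called higher (log2 FC 1.74, SE 0.64, FDR 0.0305). The Myog call rested on KPC 3 (38.7 CPM, against 5.91 to 9.35 in the other KPC libraries): without it the log2 FC was 0.76 (FDR 0.120), and the FDR was also above 0.05 without any single no tumor library (0.0652 to 0.0814). Against KPC IL6KO the Myog call was lost without KPC 3 as well (log2 FC 0.82, FDR 0.0731).

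Genes that build and degrade the thick filament included large changes. Of 11 listed, 5 were called higher and 2 lower in KPC against no tumor, beside 26.7% and 29% of all genes. Trim63, the ubiquitin ligase MuRF1, which binds the sarcomere and marks myosin for degradation, read 217, 210.3 and 349 CPM in no tumor, 11211, 6917, 7307 and 8699 in KPC, and 282, 293, 637 and 401 in KPC IL6KO. It rose by a log2 FC of 5.04 against no tumor (SE 0.37, FDR 1.51e-06) and 4.40 against KPC IL6KO (SE 0.32). Fbxo32, the ligase atrogin-1, rose by 5.02 (SE 0.44) and 3.26 (SE 0.36). Trim54 (log2 FC 1.35) and Myom1, the M-line protein that crosslinks thick filaments (1.16), also rose, while Smyd1, a methyltransferase that acts with the myosin chaperone Unc45b, fell by 1.14 and Trim55 fell by 0.81. The most abundant gene of the list, Ttn, was not called (log2 FC -0.34, FDR 0.0805). Against KPC IL6KO 5 were called higher and 3 lower, beside 26.4% and 27.3% of all genes. Per 100 heavy chain counts Trim63 gave 0.383 ± 0.0747 counts in no tumor, 17.5 ± 3.61 in KPC and 0.625 ± 0.260 in KPC IL6KO.

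Of 31 regulators of fiber type, all measured, 9 were called higher and 11 lower in KPC against no tumor, and 5 and 12 against KPC IL6KO, beside 26.7 and 29% and 26.4 and 27.3% of all genes. With library totals 4 were higher against no tumor and 3 against KPC IL6KO, where leaving out KPC 1 gave 3 and leaving out KPC 2 or KPC 4 gave 8. Mafa and Maf, large Maf factors known to activate the IIb gene, were among those that fell most. Mafa read 29.0 to 39.0 CPM in no tumor, 1.86 to 3.23 in KPC and 13 to 34.0 in KPC IL6KO (log2 FC -3.60 against no tumor, SE 0.32, and -3.21 against KPC IL6KO, SE 0.31), and Maf read 87.2 to 109.6, 9.52 to 19.2 and 77.0 to 118 CPM (log2 FC -2.92, SE 0.23). KPC libraries did not overlap either group in Mafa or Maf. Ppargc1b, a coactivator of oxidative genes, fell by 2.87 (SE 0.33) and Mef2c, a MEF2 factor of muscle, fell by 2.54 (SE 0.22), whereas another MEF2 gene, Mef2a, rose (log2 FC 0.81, SE 0.17). Vgll2, a cofactor of TEAD proteins, rose (log2 FC 1.83, SE 0.41), as did Hdac4, a repressor of MEF2 (1.73, SE 0.35). Tbx15, a factor of glycolytic fibers and the most abundant of the list, was not called (log2 FC -0.34, FDR 0.123).

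The largest log2 FC inside the myosin cluster, among the members and the genes between or beside them, was in a long noncoding RNA. 2310065F04Rik, known as Linc-MYH, lies on the minus strand between Myh3 and Myh2 (chr11:67112461-67120080) and overlaps neither. It read 102, 113 and 111 CPM in no tumor, 8.32, 12, 6.51 and 11 in KPC, and 113, 122, 103 and 72.6 in KPC IL6KO. KPC was 11.5-fold lower than no tumor (log2 FC -3.52, SE 0.22, FDR 8.47e-07) and 10.9-fold lower than KPC IL6KO (log2 FC -3.44, SE 0.21, FDR 6.72e-07), with a log2 FC of -0.08 between the other two. Of the 7 genes of the table within 500 kb of a member on chromosome 11, leaving out the members, 1 was called higher (Adprm) and 4 lower in KPC against no tumor: 2310065F04Rik, Dhrs7c (log2 FC -2.22), Gas7 (-1.85) and Tmem220 (-0.75, not past the FDR without no tumor 2, 0.121, or in a fit of only those groups). On chromosome 14, 5 of 21 neighbours of Myh7 were called higher and 7 lower. Of all genes 26.7% were called higher and 29% lower in this comparison. The neighbours Myh13 (log2 FC -1.26, FDR 0.0987) and Myh6 (-0.94, FDR 0.167), themselves myosin heavy chains, were not called. Among the other heavy chain genes, of which 7 of 8 were measured, the nonmuscle chain Myh14 rose from 56.3 to 65.5 CPM in no tumor to 307 to 465 in KPC (log2 FC 2.62, SE 0.19), while the nonmuscle chain Myh9 (-0.87) and the smooth muscle chain Myh11 (-0.82, FDR 0.0183, or 0.0661 without no tumor 2, and lost in a fit of only those groups) were called lower.

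Within groups the members differed in how much they varied from mouse to mouse. The biological coefficient of variation was 97.2% for Myh7, higher than that of 99.9% of genes, 57.8% for Myh2, 45.2% for Myh3, 30.2% for Myh1, 18.8% for Myh8 and 14.3% for Myh4, beside a common value of 22.7%. After each group mean was removed from log2 CPM, the genes most like Myh7 over the 11 libraries among 10504 genes were the slow troponins Tnni1 (Pearson r = 0.99, Spearman rho = 0.99), Tnnc1 (0.98 and 0.99) and Tnnt1 (0.97 and 0.99). Without the 2 libraries farthest out in Myh7, KPC 2 and no tumor 2, these r were 0.98, 0.97 and 0.96. Tnni1 read 12.9, 1.61 and 14.5 CPM in no tumor, 6.04, 1.80, 35.1 and 32.2 in KPC, and 42.8, 13.3, 40.2 and 32.7 in KPC IL6KO. The libraries low in Myh7 were low in Tnni1 too. The slow light chains Myl3 (r = 0.94, rho = 0.97) and Myl2 (0.91 and 0.95) and the slow pump Atp2a2 (0.92 and 0.95) lay near it, and Mb did not (0.08 and 0.14).

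Myh2 varied along a different line. Its nearest genes within groups were Acaa2, a mitochondrial enzyme of fatty acid oxidation (r = 0.98, rho = 0.93), Bdh1, a ketone body dehydrogenase (0.98 and 0.95), and Esrrb (0.98 and 0.97), and Mb stood at 0.98 (rho = 0.93). Mb read 2381, 2208 and 1465 CPM in no tumor, 505, 1225, 972 and 2199 in KPC, and 2044, 2600, 2796 and 1959 in KPC IL6KO, so KPC 4 was high and KPC 1 low in both messages. For Myh1 the nearest were Mpc2, a subunit of the mitochondrial pyruvate carrier (r = 0.99, rho = 0.99), Sdhb, a subunit of succinate dehydrogenase (0.99 and 0.99), and Yars2 (0.98 and 0.97). Myh1 and Myh2 had r = 0.92 (rho = 0.87), or 0.74 without KPC 1 and KPC 4, while Myh2 and Myh7 had r = 0.04 (rho = -0.03), or -0.62 without those libraries. For Myh4 the nearest was Nans (0.91 and 0.86), for Myh3 Myh7b (0.96 and 0.96) and for Myh8 Msantd3 (0.91 and 0.90). The top genes were picked as the highest of 10504 and share libraries and depth with the members, so these values are descriptions without a p.

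**Figure D5:**
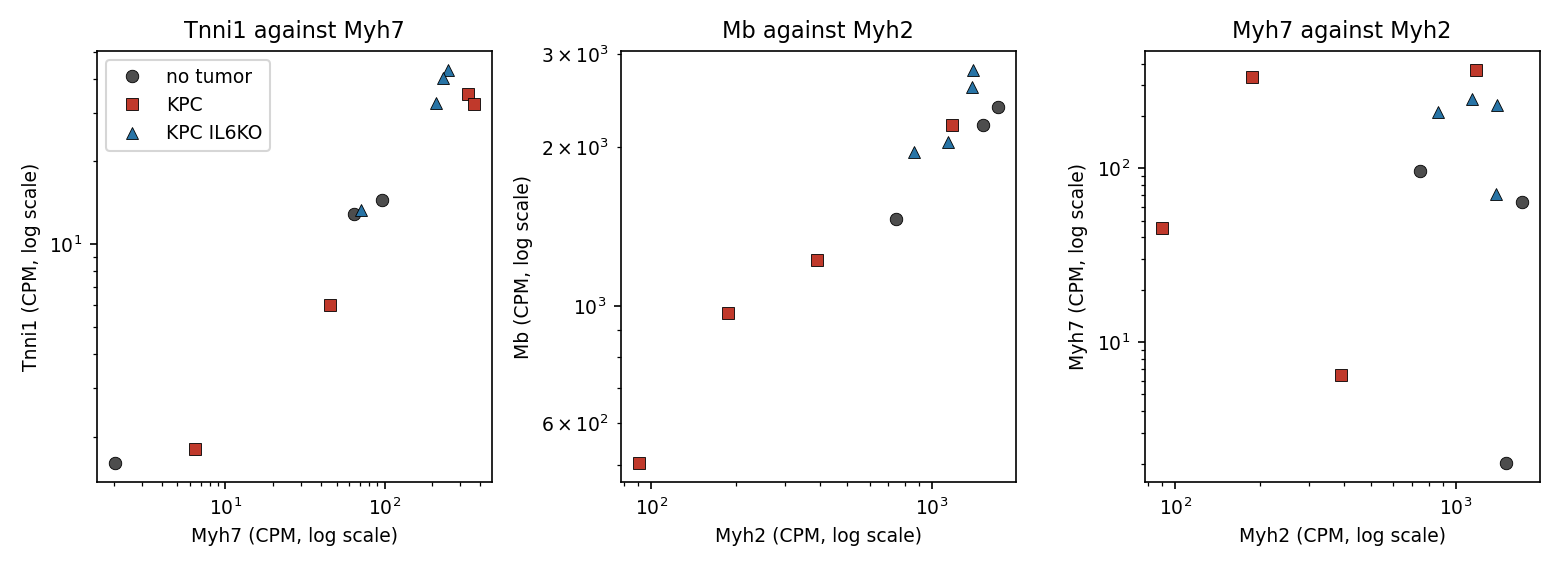
Each point is 1 quadriceps library, and both axes are CPM on log scales. Tnni1 follows Myh7 and Mb follows Myh2 along a line in all 3 groups, while Myh7 against Myh2 shows no line, with KPC 1 at 90.1 CPM of Myh2 and KPC 4 at 1184.

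In epididymal fat the same messages were read as markers of skeletal muscle carried over with the tissue, not of fiber types. Only Myh4, Myh1 and Myh2 were in that table. Myh4 counted 0, 13, 1 and 3061 in no tumor, 0, 1, 0 and 7 in KPC, and 117, 2392, 5968 and 26529 in KPC IL6KO. All 4 KPC IL6KO libraries held more Myh4 than every KPC library, and no tumor 8 stood far above the rest of its group. Myh1 counted 92, 34, 167 and 623, then 0, 6, 20 and 5, then 33, 72, 125 and 8078 in the same order, and Myh2 counted 15, 12, 13 and 371, then 0, 0, 1 and 0, then 4, 2, 30 and 868. Other muscle messages followed Myh4 in part. Acta1 read 2.00 to 133 CPM in no tumor, 0.496 to 2.84 in KPC and 33.4 to 624 in KPC IL6KO, and Ckm, the muscle creatine kinase, read 0.491 to 44.0, 0.0650 to 0.539 and 15.5 to 270. Acta1 was 91.5 CPM in no tumor 6 with Myh4 at 0.450 CPM, and 71.8 in KPC IL6KO 5 with Myh4 at 2.87, against 33.4 in KPC IL6KO 6 with Myh4 at 82.0. Set against the no tumor quadriceps mean, in a table normalized separately, Myh4 reached 1.35% in KPC IL6KO 8, 0.295% in KPC IL6KO 7, 0.136% in KPC IL6KO 6 and 0.0804% in no tumor 8.

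The mix of the members differed between fat libraries. Among those with at least 100 counts of the members, Myh4 was 74.8 to 97.5% of the sum in KPC IL6KO and 75.5% in no tumor 8, whereas Myh1 was 86.0% in no tumor 5 and 92.3% in no tumor 7, at 107 and 181 counts of the members. In those libraries Myh1 stood at 0.0733 and 0.0755% of its no tumor quadriceps mean and Acta1 at 0.00708 and 0.00567%, and whether their Myh1 counts came from carried-over muscle was not tested. In all 3 fat comparisons 0% of genes and 0 of 3 members were called by the quasi-likelihood test, the lowest FDR of a member being 0.284 (Myh2, KPC against no tumor). At p under 0.05 there were 3 members and 2061 genes in KPC against no tumor, 1 and 1584 in KPC IL6KO against no tumor, and 3 and 1062 in KPC against KPC IL6KO. DESeq2 called 1, 0 and 1 of the members (Myh4 each time) and 585, 286 and 125 genes, and the likelihood ratio test called 1, 0 and 3 members. Over all 16962 genes the likelihood ratio test called 268 higher and 145 lower in KPC against no tumor. It called 209 higher and 0 lower in KPC IL6KO against no tumor, and 7 higher and 59 lower in KPC against KPC IL6KO. No fold is given for Myh2, since each KPC library was at or under the floor of 3 counts. Smooth muscle also varied in this tissue, with Myh11 at 187 to 2334 CPM in no tumor, 43.7 to 118 in KPC and 117 to 2225 in KPC IL6KO.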

How the data were processed

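RNA from quadriceps (11 libraries) and epididymal fat (12 libraries) was sequenced as pairs of 75-base reads. The authors aligned reads to mm10 with STAR, counted unique reads per UCSC gene with featureCounts 1.5.1 and deposited raw counts, 1 table per tissue. Their edgeR version was 3.12.1. A no tumor quadriceps sample that they removed as an outlier was not analysed here.

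Each table was fitted over all its genes and groups with edgeR 4.0.16 in R 4.3.3 (TMM, quasi-likelihood test, Benjamini-Hochberg FDR), after tests on simulated data. No gene was lost to the low-count filter. Intervals are 95%. Nothing in the labels pairs quadriceps mice with fat mice, and p-values measure the spread between these libraries. No pair of libraries agreed within sampling noise. Shares, totals and ratios were compared with 2-sided exact permutation tests (scipy 1.17.1), adjusted over each family. DESeq2 1.42.0, the edgeR likelihood ratio test, other normalizations, filters and blocks were alternatives. Levels per kb used the exon union of GENCODE M21, and coding sequences were aligned with MAFFT 7.526.

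The members and gene lists were chosen with earlier results of these data known. Named genes were the members and, of each list, the most abundant gene and up to 4 called genes in each direction with the largest change, the 3 genes most like each member provided their log2 CPM averaged 1 or more (prior count 1), and neighbours within 500 kb. Tnnc2, Tnnt3, Tnni2, the slow genes set beside Myh7 other than its 3 nearest, Mb beside Myh2 and Myh7, and the ratios were added after their values were seen.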

Additional observations from a re-analysis of the deposited data

Results flagged for a closer look

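Among 53 sets of values in groups of 4 libraries, 12 had a highest or lowest library far from its group by Dixon's criterion, where chance gives about 1 in 20. In fat, KPC IL6KO 8 stood apart with 246.92 CPM of Myh1 (next 3.71), 26.5 of Myh2 (next 0.891), 624 of Acta1 (next 75.4) and 270 of Ckm (next 46.1). No tumor 8 stood apart in fat with 5.87 CPM of Myh2 (next 0.614) and 48.4 of Myh4 (next 0.450). In the fat of KPC mice, KPC 7 had 0.0337 CPM of Myh2 where the others had 0, which is 1 count, and KPC 8 had 0.228 CPM of Myh4 (next 0.0286), which is 7 counts.

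In quadriceps, KPC IL6KO 2 had the lowest Myh7 share of its group, 0.105% of the myosin total (next 0.349%). KPC IL6KO 4 had the highest Atp2a1 ratio, 76 counts per 100 heavy chain counts (next 62.8). KPC 2, the KPC library with the least Myh7, had 136 counts of the slow light chains Myl2 and Myl3 per 100 Myh7 counts (next 53.3) and 108 counts of the slow troponins (next 42.4).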

How the results depend on the processing

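Other tools, filters and normalizations left 163 values that answer a comparison and 1200 for single genes on the same side of the threshold. Of single genes named from the lists, 13 calls were lost: Eya4 (library totals), Kdr (the block), Myh11, Eya4 and Mrc1 (a fit of only the compared groups) in KPC against no tumor, and against KPC IL6KO Sln, Mef2a and Des (library totals) and Myh10, Sln, Mef2a, Csf1r and Mrc1 (only the compared groups). Among neighbours Tmem220 and Pabpn1 lost 5. The calls gained, 24, were those of Myh2, Myh4 and Myh8 in quadriceps and of Myh1, Myh2, Myh4, Acta1 and Ckm in fat. Myh3 lay between 0.62 and 2.24 CPM, and the interval of Myh7 spanned more than that of any other member. The counts of lower members, 0 of 6 in the main fit, were 1 by DESeq2, 1 by the likelihood ratio test and 3 with library totals in KPC against no tumor, and 1, 1 and 1 in KPC against KPC IL6KO. In fat DESeq2 and the likelihood ratio test called 1 and 1 in KPC against no tumor and 1 and 3 in KPC against KPC IL6KO. In KPC against no tumor DESeq2 called 2 slow isoforms higher, and library totals 4 regulators higher and 2 slow isoforms lower. In KPC against KPC IL6KO library totals and a fit of only the compared groups each called 0 slow isoforms and 3 regulators higher. The cause was not tested.

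Of 10 quadriceps pairs of libraries with the same replicate number, 2 correlated above 0.1, with a median r of 0.058 against -0.031 in other pairs. In fat 7 of 12 such pairs did, with a median r of 0.18 against -0.12 in the 36 other pairs. The fat ranges overlapped (-0.53 to 0.66 and -0.64 to 0.61), and whether the replicate number pairs the fat samples was not settled. With the number as a replicate block 1 member was called lower in each KPC comparison (Myh2, log2 FC -2.29 and -2.0) and 4 slow isoforms lower against KPC IL6KO, with 3342 genes higher and 3701 lower against no tumor, and it changed no other call of a member. The block turned Myh1 in KPC IL6KO against no tumor to -0.027, and Myh2 in fat to -0.018. DESeq2 turned Myh8 in KPC IL6KO against no tumor to 0.0045. Myh7 in KPC against KPC IL6KO became 0.0059 by DESeq2 and 0.0057 with RLE factors, and as a log2 share -0.74. The Myh3 log2 share in KPC IL6KO against no tumor was 0.067.

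With 1 library left out at a time, where an arm of 3 keeps 2, the lower members ranged from 0 to 2 against no tumor (2 without no tumor 2, Myh4 and Myh8) and 0 to 1 against KPC IL6KO. In KPC against no tumor slow isoforms ranged from 1 to 2 higher (2 without KPC 2) and 0 to 2 lower (0 without no tumor 1, 2 without KPC 4), and embryonic genes from 0 to 1 higher. In KPC against KPC IL6KO slow isoforms ranged from 0 to 1 higher and 1 to 3 lower, embryonic genes from 0 to 1 higher, and regulators from 3 to 8 higher (3 without KPC 1, 8 without KPC 2 or KPC 4). The drop of the summed members stayed between -2.77 and -2.36 percentage points against no tumor and between -2.34 and -1.87 against KPC IL6KO, with an adjusted exact p of 0.0857 to 0.150 where the smaller groups could give no less. In KPC against no tumor the log2 FC of Myh1 ranged from -0.039 to 0.50 and of Myh3 from -0.82 to 0.34. In KPC against KPC IL6KO the ranges were -0.16 to 0.38 for Myh1, -0.72 to 0.051 for Myh3 and -0.57 to 0.38 for Myh7. In KPC IL6KO against no tumor they were -0.039 to 0.23 (Myh1), -0.43 to 0.078 (Myh2), -0.36 to 0.46 (Myh3), -0.13 to 0.071 (Myh4) and -0.13 to 0.069 (Myh8), and in fat -1.0 to 4.43 (Myh1) and -2.35 to 3.95 (Myh2), the lowest without KPC IL6KO 8.
Differences in share, in percentage points, ranged in KPC IL6KO against no tumor from -0.536 to 1.53 (Myh1), -0.743 to 0.0669 (Myh2), -0.000641 to 0.000537 (Myh3), -1.62 to 1.03 (Myh4) and -0.000221 to 0.000425 (Myh8). In KPC against KPC IL6KO they ranged from -0.000274 to 0.000706 (Myh3), -0.0344 to 0.222 (Myh7) and -0.000581 to 6.48e-05 (Myh8), and in KPC against no tumor from -0.000368 to 0.000902 (Myh3) and -0.000384 to 3.17e-05 (Myh8). The slow troponin ratio in KPC against KPC IL6KO ranged from -20.4 to 3.52 counts. Against no tumor the KPC differences ranged from -184 to -12.9 for slow troponins and -547 to -54.0 for slow light chains, the smallest without no tumor 2. The list, neighbour and ratio alternatives were chosen after seeing the data.

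An alternative without mitochondrially encoded genes was not run, as the table holds 0 of them, and the low-count filter removed no gene.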

Other observations

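Set against Myh7 in the same library, the slow troponins Tnnt1, Tnni1 and Tnnc1 together gave 181 ± 195 counts per 100 Myh7 counts in no tumor (n = 3), 56.2 ± 34.8 in KPC (n = 4) and 59.3 ± 7.45 in KPC IL6KO (n = 4). No tumor 2, which held 103 Myh7 counts, stood at 406 and the other no tumor libraries at 75.4 and 62.8. The slow light chains Myl2 and Myl3 gave 439 ± 548, 69.3 ± 45.0 and 103 ± 20.7, with no tumor 2 at 1071 and the other no tumor libraries at 161 and 85.6. The lowest adjusted p of these ratios was 0.0935 by the exact permutation test, and the groups overlapped in every comparison. Acaa2, the gene nearest to Myh2 within groups, had a log2 FC of -1.08 in KPC against no tumor (SE 0.34, FDR 0.0144) and -1.04 against KPC IL6KO (SE 0.32, FDR 0.0130). Bdh1, next in likeness to Myh2, had -1.07 (SE 0.56, FDR 0.108) and -1.61 (SE 0.53, FDR 0.0170).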
